A study of Mus musculus with 21 samples.

Results

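The 9 control tumors of this series were divided by whether they expressed *Gata4*, and all other genes were compared between the 2 classes. *Gata4* was above 5 CPM (read counts scaled to library size with edgeR's TMM method over the control tumors) in 4 tumors, N-3, N-8, N-15 and N-17, and below 0.1 CPM in 5 tumors, N-1, N-4, N-6, N-7 and N-9. These are 9 of 21 tumors in all, and the labels give the other 12 the genotype R26(RhoC/+);FloxNeoNeuNT;MMTV-CreNLST, with a RhoC transgene and no loxP allele of *Gata4*. The tumors were selected on their *Gata4* level, so that level is given as a description, without a test.

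All 9 control mice were female, virgin and carried FloxNeoNeuNT, an activated NeuNT cDNA at the mouse *Erbb2* locus behind a stop cassette that Cre removes, together with MMTV-CreNLST, a mammary Cre transgene. The labels give N-1, N-3, N-4, N-6, N-7, N-8 and N-9 the genotype Gata4(loxP/+);FloxNeoNeuNT;MMTV-CreNLST, so that Cre can delete 1 of the *Gata4* copies and the other allele stays wild type. N-15 and N-17 are FloxNeoNeuNT;MMTV-CreNLST, with no loxP allele of *Gata4*. Thus 2 of 4 expressing tumors and 5 of 5 non-expressing tumors carried the loxP allele, and both control tumors without it were expressing. Of the 12 RhoC tumors, which also have no loxP allele by their labels, 1 exceeded 5 CPM of *Gata4* and 7 had 0 reads. The *Gata4* allele had been introduced in the study to test a proposal about *ErbB2* amplification. By that proposal, amplification gets around repression of the promoter by Gata4 and other proteins. Each control tumor came from a different mouse. The age of each mouse is not given in the labels. The counts do not separate the alleles of *Gata4*, and whether Cre had acted in a given tumor was not measured. By the study's histology, N-3, N-8, N-15 and N-6 were poorly differentiated adenocarcinomas, N-7 and N-9 solid nodular carcinomas, N-4 a complex adenocarcinoma and N-1 a spindle cell tumor, while N-17 had no stated type. Poorly differentiated adenocarcinoma was therefore the type of 3 of 3 expressing tumors with a stated histology and of 1 of 5 non-expressing tumors, and histology and *Gata4* class are partly confounded.

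GATA factors are zinc finger proteins that bind the DNA sequence GATA. *Gata4* is known for its roles in heart, gut endoderm and gonads, while *Gata3* is the GATA factor that maintains luminal cells in the mammary gland. FOG proteins, encoded by *Zfpm1* and *Zfpm2*, bind GATA factors and alter their activity, and *Trps1* encodes a GATA-type zinc finger repressor that is abundant in mammary epithelium.

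Total counts per control tumor ranged from 47552423 in N-1 to 100741339 in N-8 and did not differ detectably between the classes (2-sided exact permutation test, p = 0.286). The median correlation of a control tumor with the other controls lay between 0.833 and 0.874, and no control tumor stood apart. No sequencing batch is named in the labels, and none could be examined.

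*Gata4* (ENSMUSG00000021944.15, chromosome 14 of GRCm38.p6 from 63198922 to 63271692) had 2518 reads in N-3 (36.6 CPM), 2579 in N-8 (30.9 CPM), 2560 in N-15 (51.6 CPM) and 519 in N-17 (6.91 CPM). N-1 had 1 read (0.0185 CPM), and N-4, N-6, N-7 and N-9 had 0 reads, where 3 counts, the limit that a count of 0 allows, would be at most 0.0631 CPM in any control tumor. N-17 was the expressing tumor nearest the upper threshold and N-1 the non-expressing tumor nearest the lower one, and no control tumor lay between them. Among the loxP/+ tumors, N-3 and N-8 were within the range of the tumors without the allele. Of the 12 tumors with the RhoC transgene, which the comparison did not use, 1 exceeded 5 CPM (R-12, 325 reads, 5.44 CPM on the scale of all 21 tumors). R-2 had 64 reads (1.06 CPM), R-21 had 7 (0.103 CPM), R-16 had 2 and R-7 had 1, while 7 others had 0. With a single RhoC tumor above the threshold, the same contrast was not tested in that cohort.

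**Figure D1:**
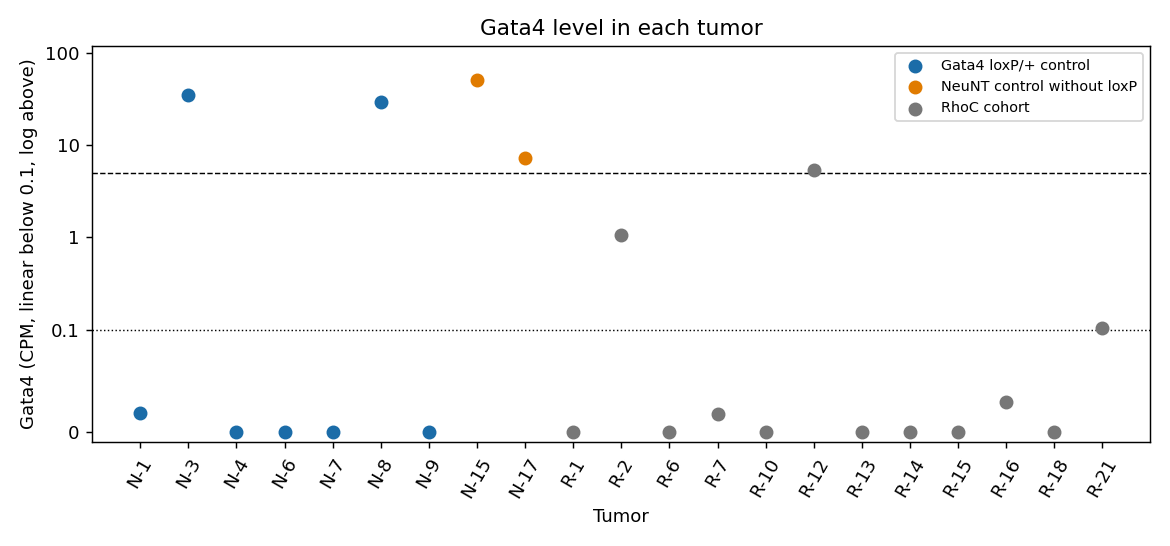
*Gata4* level in each of the 21 tumors (CPM scaled over all 21 tumors, linear below 0.1 and logarithmic above), colored by genotype, with the thresholds of 5 CPM (dashed) and 0.1 CPM (dotted). N-3, N-8, N-15 and N-17 lie above the dashed line and the other control tumors at or near 0.

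Of 19832 genes that passed the filter on low counts, 0 (0%) were called at 0.05 by the quasi-likelihood test of edgeR after Benjamini-Hochberg adjustment, and the smallest adjusted p was 0.0641. At an unadjusted p under 0.05 there were 2492 genes, 1566 higher in expressing tumors (7.90% of the genes tested) and 926 lower (4.67%). Other methods gave other counts. DESeq2 called 671 genes, 433 higher and 238 lower (2.27% and 1.25% of its 19112 genes with an adjusted p), limma's voom with sample weights called 57, and edgeR's test with all 21 tumors in the fit called 25. DESeq2 and voom shared 53 calls, and 7 genes were called by all 3 of these. In simulated data with the spread and depth of these tumors, the quasi-likelihood test recovered 0% of genes changed 2-fold, 20% of those changed 4-fold, 58% of those changed 8-fold and 72% of those changed 16-fold. The genes described next are therefore those with the smallest p, 10 in each direction. The edgeR quasi-likelihood test called none of them, DESeq2 gave each of the 20 an adjusted p of at most 2.74e-04, and 4 of the 20 were called by DESeq2, voom and the fit with all 21 tumors. These fits use the same control tumors in which the 20 genes were chosen, so they give no independent support. In what follows, the members of a list counted as higher or lower had an unadjusted p under 0.05. P-values set the difference between the classes against the spread between these tumors, and genotype and histology were not balanced between the classes. In 433 genes (2.18%) every expressing tumor was above every non-expressing tumor, and in 466 (2.35%) every one was below. All 20 genes were of this kind, which selection by p favours.

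The gene with the smallest p was *Htr5b* (ENSMUSG00000050534.8, chromosome 1 from 121509842 to 121528465), a serotonin receptor. It was at 18.6 CPM in N-3, 4.18 in N-8, 8.18 in N-15 and 4.24 in N-17. In the non-expressing tumors it was listed at 0 in N-1 and N-7, 0.063 CPM in N-4, 0.017 in N-6 and 0.0274 in N-9. *Htr5b* thus passed the filter on low counts only through the expressing tumors, which favours its separation and its rank by p. Every expressing tumor was above every non-expressing one, and the fitted log2 fold change of 8.61 (SE 0.96, edgeR adjusted p = 0.0641) depends on the small count that the fit adds, since the non-expressing tumors were at or near 0 reads.

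*Abcc4*, which encodes a transporter that exports cyclic nucleotides and prostaglandins, was at 137, 45.6, 142 and 85.7 CPM in N-3, N-8, N-15 and N-17 and at 5.61 to 20.8 CPM in the non-expressing tumors, where N-1 was highest. Its log2 fold change was 3.26 (SE 0.45, edgeR adjusted p = 0.0963). *Ebf2*, a transcription factor gene known from brown adipocytes and mesenchymal progenitors, was at 45, 75, 24.5 and 48.7 CPM against 1.29 in N-1, 9.59 in N-4, 4.28 in N-6, 5 in N-7 and 3.75 in N-9. Its log2 fold change was 3.36 (SE 0.54, edgeR adjusted p = 0.0963), and the lowest expressing tumor, N-15, was above the highest non-expressing tumor, N-4. *Itga9*, the integrin α9 subunit, was at 211 ± 127 CPM (SD, n = 4) against 31 ± 7.59 CPM (SD, n = 5), with N-3 (360 CPM) and N-15 (273 CPM) highest. *Trpv4*, a calcium-permeable cation channel, was at 10.3 CPM in N-3 and 27.9 to 39.7 CPM in the other expressing tumors, against 2.31 to 6.93 CPM. The log2 fold changes of these last 2 genes were 2.79 and 2.85.

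*Adamts9*, a secreted metalloproteinase of the extracellular matrix, had the smallest SD relative to its mean among the expressing tumors of the 10 higher genes (66.1 ± 6.37 CPM). Its levels were 72.8, 69.2, 58.1 and 64.5 CPM in N-3, N-8, N-15 and N-17 and 15.6 to 31.8 CPM in the non-expressing tumors, a log2 fold change of 1.59 (SE 0.25, edgeR adjusted p = 0.0963). *Chsy1*, a chondroitin sulfate synthase, was at 189 ± 75 CPM against 47.7 ± 7.98 CPM, with N-17 lowest among the expressing tumors at 88.9 CPM. *B4galt5*, a galactosyltransferase of glycosphingolipid synthesis, was at 68.2 ± 29.7 CPM against 14.3 ± 5.18 CPM. *Hip1*, an endocytic adaptor, was at 158 ± 80.5 CPM against 31.7 ± 7.73 CPM. *Ubash3b*, a phosphatase that dampens tyrosine kinase signaling, was at 27.6 ± 7.22 CPM against 8.18 ± 1.31 CPM. Each of these 4 genes had an edgeR adjusted p of 0.0963.

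*Ehf*, *Grhl1* and *Zfp750*, all transcription factors, were among the 10 lower genes, which were chosen by p and tested for no shared function. *Ehf*, an epithelial ETS factor, was at 406, 535, 436 and 180 CPM in N-3, N-8, N-15 and N-17 and at 1080 to 1544 CPM in the non-expressing tumors (log2 fold change -1.67, SE 0.33, edgeR adjusted p = 0.137). *Grhl1*, a grainyhead factor of the epidermis, was at 85.2, 64.2, 57.6 and 50.5 CPM against 145 to 292 CPM (log2 fold change -1.66, SE 0.26, edgeR adjusted p = 0.0963). *Zfp750*, a regulator of terminal epidermal differentiation, was at 11 to 23.5 CPM against 40.9 to 102 CPM (log2 fold change -1.90, SE 0.36, edgeR adjusted p = 0.132). For all 3 genes the classes did not overlap.

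*Lgr6*, a receptor for R-spondins that marks epithelial progenitors in skin, was at 31.9, 4.60, 32.3 and 13 CPM in N-3, N-8, N-15 and N-17. In the non-expressing tumors it ranged from 89.4 CPM in N-4 to 574 CPM in N-1 (log2 fold change -4.07, SE 0.75, edgeR adjusted p = 0.132). *Lao1*, an L-amino acid oxidase secreted into milk, was at 0.0581 to 0.187 CPM in expressing tumors. It varied widely in the others, from 0.399 CPM in N-4 to 56.7 CPM in N-6, so that N-4 came close to the expressing tumors. *Lao1* passed the filter on low counts only through the non-expressing tumors. *Padi2*, a peptidylarginine deiminase, was at 9.10 ± 1.24 CPM against 49 ± 30.5 CPM, where N-7 was highest at 101 CPM. *Nhsl1*, an actin-regulating protein of cell migration, had 410 ± 47.6 CPM in expressing and 1335 ± 217 CPM in non-expressing tumors, a log2 fold change of -1.67 (SE 0.26, edgeR adjusted p = 0.0963). *Hsdl2*, a peroxisomal protein of the hydroxysteroid dehydrogenase-like family, was at 30.7 ± 3.68 CPM against 77.6 ± 9.10 CPM. *Ngef*, a guanine nucleotide exchange factor, was at 2.81 ± 1.34 CPM against 13.1 ± 4.15 CPM, and *Ttll10*, a tubulin-modifying enzyme, was at 2.15 ± 0.298 CPM against 10.3 ± 4.66 CPM.

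**Figure D2:**
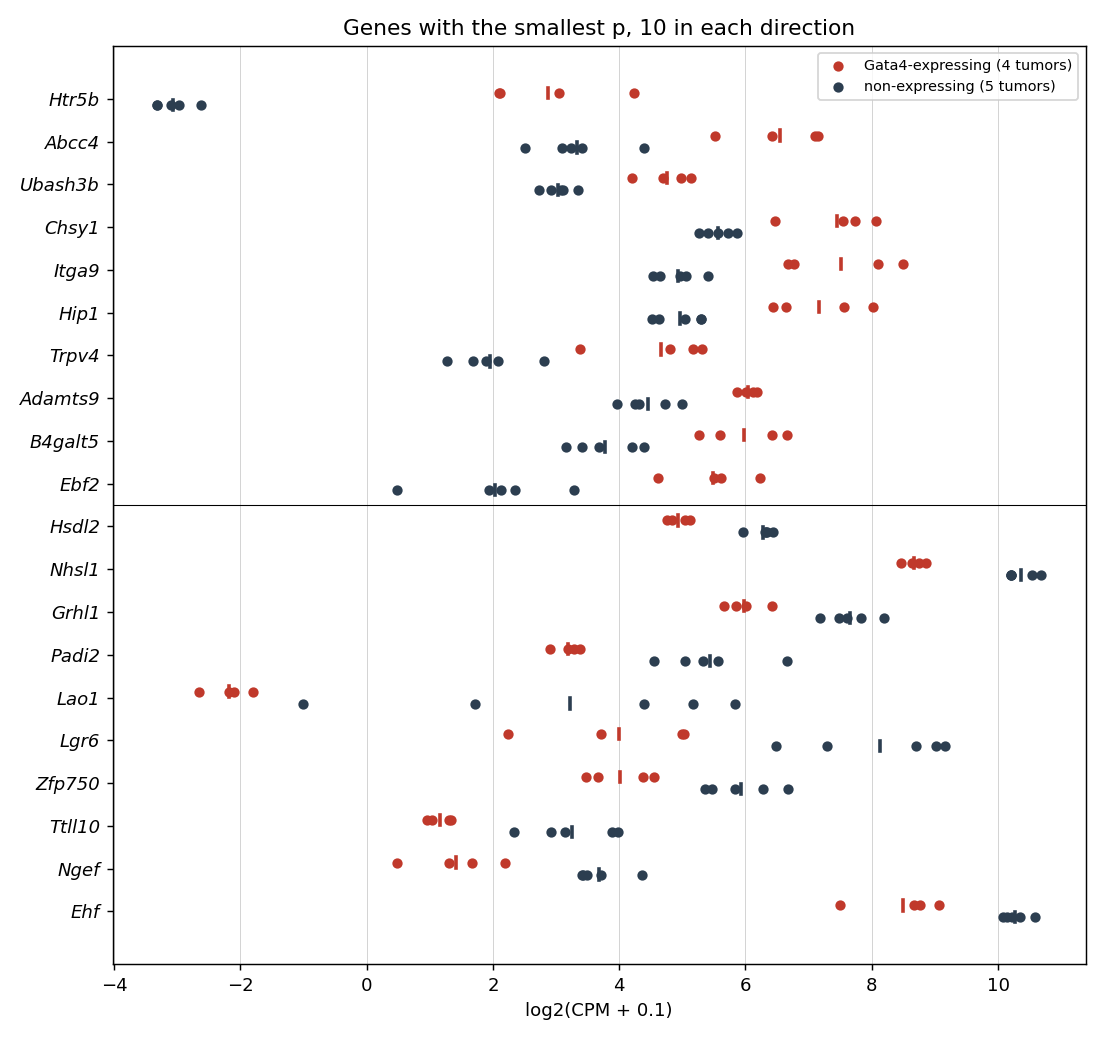
Levels of the 10 higher and 10 lower genes with the smallest p, as log2(CPM + 0.1), with 1 point per tumor and a bar at the mean of each class. In each of the 20 genes the 4 expressing tumors lie apart from the 5 non-expressing tumors, and *Lao1* has the widest spread among the non-expressing tumors.

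The 7 genes called by DESeq2, voom and the fit with all 21 tumors were *Ebf2*, *Ubash3b*, *Chsy1*, *Pag1*, *Arpc1b* and *Ripk2*, all higher, and *Ttll10*, lower. They were named after their values were seen. *Arpc1b*, a subunit of the actin-nucleating Arp2/3 complex, was at a mean of 241 CPM against 110 CPM. *Pag1*, a membrane adaptor that recruits Csk to Src family kinases, was at 81.4 CPM against 21.1 CPM, and *Ripk2*, a kinase downstream of NOD receptors, was at 28 CPM against 6.88 CPM. These 3 genes had log2 fold changes of 1.15, 1.97 and 2.04.

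In the 7 loxP/+ tumors alone, N-3 and N-8 were compared with the 5 non-expressing tumors, and since the classes did not overlap in any of the 20 genes, their direction was fixed there. *Htr5b* had a log2 fold change of 8.97, *Abcc4* of 3.07, *Ebf2* of 3.64, *Ehf* of -1.41 and *Lgr6* of -4.24 in these tumors, and 0 genes were called by edgeR's test, with 1868 at an unadjusted p under 0.05. With histology as a covariate, over 8 tumors and without N-17, edgeR's test called 0 genes and 1458 had an unadjusted p under 0.05. Since N-6 was the only non-expressing poorly differentiated adenocarcinoma, that fit compared N-3, N-8 and N-15 with N-6 alone, and it cannot separate histology from this tumor.

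R-12, the RhoC tumor above 5 CPM of *Gata4*, and R-2 were set beside the 10 other RhoC tumors as a description. RhoC tumors are not all independent, since R-13, R-14, R-15 and R-16 came from 1 mouse and R-6 and R-7 from another, which also holds for the fit with all 21 tumors. In R-12, 9 of the 10 higher genes were above the median of those 10 tumors and 2 of the 10 lower genes were. In R-2, 4 of the 10 higher and 4 of the 10 lower genes were above it. *Ebf2* was at 12.3 CPM in R-12 against 1.27 to 9.87 CPM in the 10 tumors, *Adamts9* at 55.3 CPM against 14.8 to 48.5 CPM, and *Grhl1* at 30.6 CPM against 43.5 to 207 CPM. R-2 was outside the range on the opposite side for *Chsy1* (43 CPM against a minimum of 83 CPM) and *Hip1* (31.4 CPM against a minimum of 46.6 CPM). *Htr5b* was at 0.368 CPM in R-12, while the 10 tumors ranged from 0 to 19.8 CPM although none of them had more than 0.103 CPM of *Gata4*. In the same 10 tumors *Chsy1* was at 83 CPM or more, against a mean of 47.7 CPM in the non-expressing control tumors. *Hip1* was also above its mean in those control tumors. High levels of these genes were thus not particular to tumors with *Gata4*.

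Of the 8 other GATA and FOG genes, 6 passed the filter, and 1 had an unadjusted p under 0.05. At that threshold 7.90% of all genes tested were higher and 4.67% lower. *Trps1* (ENSMUSG00000038679.16, chromosome 15 from 50654752 to 50890463) was at 1118 CPM in N-3, 1022 in N-8, 1204 in N-15 and 713 in N-17. In the non-expressing tumors it was at 2184 CPM in N-1, 2501 in N-4, 1988 in N-6, 2081 in N-7 and 2346 in N-9. The classes did not overlap, and the means were 1014 ± 214 CPM (SD, n = 4) and 2220 ± 205 CPM (SD, n = 5). The log2 fold change was -1.11 (SE 0.27, edgeR unadjusted p = 0.00214, adjusted p = 0.211), and it was -1.05 in the loxP/+ tumors alone. DESeq2 gave an adjusted p of 2.18e-04 and voom one of 0.0468, while the fit with all 21 tumors gave 0.290.

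*Gata3* was at 3.24 CPM in N-3, 201 in N-8, 73.4 in N-15 and 123 in N-17, against 183 to 269 CPM in the non-expressing tumors. N-8 lay within the range of the non-expressing tumors, and the log2 fold change of -1.01 (SE 0.76, edgeR adjusted p = 0.609) was within the spread between tumors. N-3 thus had *Gata4* at 36.6 CPM and *Gata3* at 3.24 CPM. *Gata2* was at 1.30 to 5.52 CPM in expressing tumors and at 59.1 CPM in N-1 but at most 1.99 CPM in the 4 other non-expressing tumors. Its log2 fold change was -1.87 with N-1 and 1.18 without it. *Gata6* was at 1.26 to 17.9 CPM against 1.83 to 12.2 CPM, and the cofactor genes *Zfpm1* (8.44 to 44.4 against 10.6 to 29.9 CPM) and *Zfpm2* (0.624 to 8.91 against 0 to 5.29 CPM) also overlapped. *Gata1* and *Gata5* did not pass the filter, with at most 0.147 and 0.0806 CPM. On the scale of the deposited FPKM, which corrects for gene length, *Gata4* was at 1.89 to 12.8 in expressing tumors, *Gata3* at 0.796 to 65.6 over the 9 tumors and *Trps1* at 56.8 to 187, so *Trps1* was the most abundant of these 3 GATA-type genes.

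**Figure D3:**
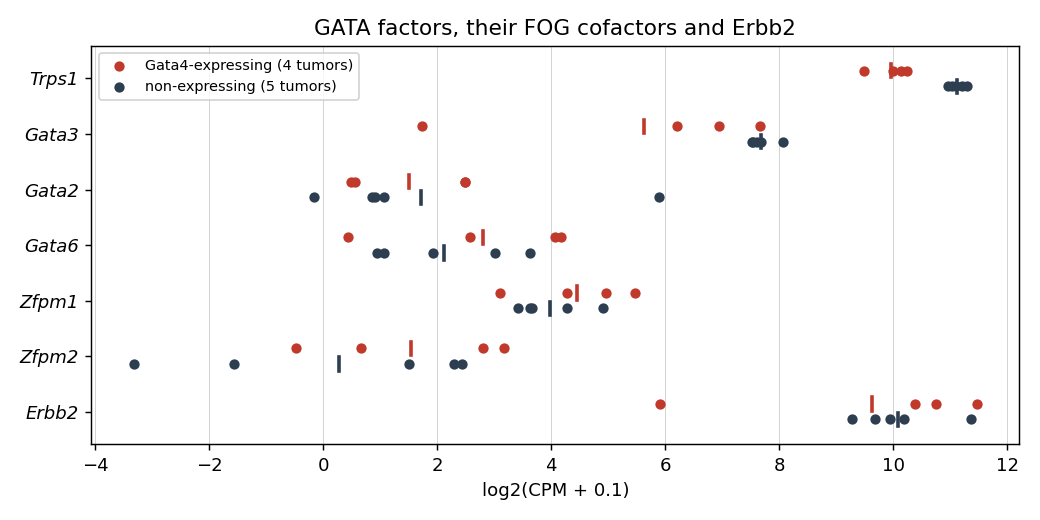
Levels of *Trps1*, *Gata3*, *Gata2*, *Gata6*, *Zfpm1*, *Zfpm2* and *Erbb2* as log2(CPM + 0.1), with 1 point per tumor and a bar at the mean of each class. For *Trps1* the 4 expressing tumors (713 to 1204 CPM) lie below the 5 others (1988 to 2501 CPM), and for the other genes the classes overlap.

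*Erbb2*, the gene whose promoter *Gata4* is held to repress, was at 1713 CPM in N-3, 2825 in N-8, 59.7 in N-15 and 1333 in N-17, against 982 in N-1, 1165 in N-4, 2627 in N-6, 617 in N-7 and 815 in N-9. N-15, with the highest *Gata4*, had the lowest *Erbb2*, while N-8 had the highest *Erbb2* and was also expressing. Reads from the NeuNT cDNA that align to the mouse gene are included. The paper reports that copy number at this locus varied widely among control tumors. Copy number was not measured here, and repression of the promoter was not tested by these levels. The log2 fold change was 0.29 (SE 0.79, edgeR adjusted p = 0.906), while the mean log2 CPM differed by -0.46 (2-sided exact permutation test, p = 0.857), and no difference was detectable. The negative sign rested on N-15, and without it the mean log2 CPM differed by 0.78 (2-sided exact permutation test, p = 0.179). Among 14 tested ErbB receptors and ligands, 1 was higher and 2 lower at an unadjusted p under 0.05. Over all genes tested, 7.90% were higher and 4.67% lower. *Ereg*, an EGF receptor ligand, was at 0.613 to 4.02 CPM against 1.90 to 29.3 CPM. Of 16 tested genes beside *Erbb2*, 2 were higher and 1 lower. *Tcap*, a striated muscle gene, was at 30.3 CPM in N-17 and 3.65 CPM in N-3 and at most 0.573 CPM in the other tumors, and the skeletal muscle markers were likewise highest in N-17 and next in N-3. *Gsdma*, an epidermal gene, was at 370 CPM in N-1 and 66.1 CPM in N-9 but at 1.15 to 1.82 CPM in the expressing tumors and 0.021 to 9.80 CPM in N-4, N-6 and N-7. *Dsc1* of the squamous list was also highest in N-1 (89.8 CPM) and N-9 (23.8 CPM). The part of muscle and squamous cells in these values was not tested. *Fbxl20* was at 4280 CPM in N-8 and 1309 CPM in N-17 but at 50.8 to 77.5 CPM in N-15 and N-3, below the 86.7 to 232 CPM of the non-expressing tumors.

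Promoter sequences of RefSeq (build GRCm38.p6, 300 bases, from 250 before to 50 after each start) were searched on both strands for 4 motifs read by GATA factors. These were AGATAA, its variant with a last G (AGATAG), its variant with a first T (TGATAA) and the variant with both (TGATAG). A match was found in 29.8% of all promoters. The *Erbb2* promoter (chr11:98412234-98412533, plus strand) held 0 matches and is shown because *Gata4* is held to repress this promoter.

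Erbb2: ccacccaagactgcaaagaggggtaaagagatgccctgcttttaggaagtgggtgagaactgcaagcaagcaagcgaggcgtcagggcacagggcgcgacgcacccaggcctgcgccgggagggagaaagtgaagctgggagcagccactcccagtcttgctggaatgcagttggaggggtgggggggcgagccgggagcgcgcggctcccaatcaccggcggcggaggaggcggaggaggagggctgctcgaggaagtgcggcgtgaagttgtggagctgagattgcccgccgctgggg

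Entries were found for 16 of the 20 genes of smallest p, and 4 of their 21 promoters (19.0%) held a match. A promoter of *Ubash3b* (chr9:41079457-41079756, minus strand), one of *Abcc4* (chr14:118676882-118677181, minus strand) and one of *Hip1* (chr5:135545073-135545372, minus strand) are shown, with the matches in capitals, as those of the 10 higher genes that held one. The remaining match was in a promoter of *Nhsl1*, among the lower genes. A match shows only that these letters are present.

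Ubash3b: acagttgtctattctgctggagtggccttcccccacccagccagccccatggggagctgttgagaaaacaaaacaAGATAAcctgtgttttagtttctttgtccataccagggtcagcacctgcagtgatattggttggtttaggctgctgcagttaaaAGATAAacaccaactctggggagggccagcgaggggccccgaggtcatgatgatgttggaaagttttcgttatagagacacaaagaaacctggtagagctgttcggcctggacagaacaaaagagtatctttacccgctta
Abcc4: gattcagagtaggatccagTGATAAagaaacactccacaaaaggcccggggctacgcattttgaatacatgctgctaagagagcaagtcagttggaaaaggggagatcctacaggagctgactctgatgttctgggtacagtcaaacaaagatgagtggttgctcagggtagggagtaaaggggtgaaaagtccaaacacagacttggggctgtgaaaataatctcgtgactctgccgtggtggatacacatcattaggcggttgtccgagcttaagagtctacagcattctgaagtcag
Hip1: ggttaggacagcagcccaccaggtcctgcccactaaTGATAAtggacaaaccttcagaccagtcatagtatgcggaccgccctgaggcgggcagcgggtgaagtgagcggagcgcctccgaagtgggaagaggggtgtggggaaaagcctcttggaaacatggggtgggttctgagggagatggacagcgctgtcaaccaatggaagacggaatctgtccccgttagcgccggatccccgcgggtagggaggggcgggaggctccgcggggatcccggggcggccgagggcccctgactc

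Of the genes around *Gata4* on chromosome 14, edgeR's test called 0 and DESeq2 called *Gm37472* (log2 fold change -1.26, DESeq2 adjusted p = 0.0269), named after its values were seen. Of 32 tested genes within 2 Mb, 11 had a positive and 21 a negative log2 fold change, with a median of -0.31. Over all genes tested, 50.8% had a positive log2 fold change and the median was 0.01. Of the 32 genes, 1 was higher and 5 lower at an unadjusted p under 0.05, against 7.90% and 4.67% of all genes tested. *Kcnrg*, *Gm37420* and *Gm37472*, among the lower genes, lie within the span of *Dleu2*, so they are not separate regions. *Ctsb*, the lysosomal protease cathepsin B, was at 911, 1854, 1644 and 1152 CPM in N-3, N-8, N-15 and N-17 against 463 to 1070 CPM (log2 fold change 0.93, SE 0.34, edgeR unadjusted p = 0.0207, adjusted p = 0.311). The nearest other tested genes were *Neil2* (log2 fold change -0.19), *Fdft1* (0.35), *Fam167a* (-1.74, and -2.81 without N-8), *Mtmr9* (-0.71) and *Xkr6* (-1.46), and in each of them the classes overlapped.

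**Figure D4:**
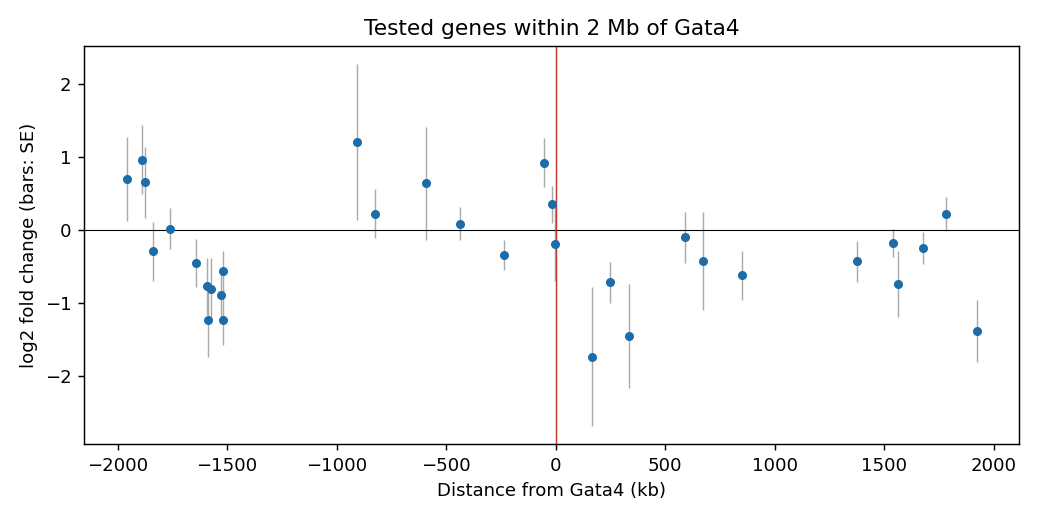
Log2 fold change (expressing minus non-expressing, bars are SE) of the 32 tested genes within 2 Mb of *Gata4*, by distance from *Gata4* in kb. The points lie on both sides of 0, with 21 of 32 below it.

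Genes of the tissues where *Gata4* is best known were described by list. At an unadjusted p under 0.05, 7.90% of all genes tested were higher and 4.67% lower. Of 20 cardiac targets or partners, 8 passed the filter, with a median log2 fold change of 1.06 that was 0.34 in the loxP/+ tumors alone and 0.091 without N-17, 1 of them higher and 1 lower at an unadjusted p under 0.05. *Tnnc1*, the troponin C of heart and slow muscle, was at 1.39, 1.06, 1.21 and 25.1 CPM in N-3, N-8, N-15 and N-17 against 0.164 to 0.357 CPM. The classes did not overlap, but N-17, where skeletal muscle markers were also highest, set the mean, and the log2 fold change of 4.85 was 2.16 without N-17. *Tnni3*, cardiac troponin I, was at 0.121 to 0.480 CPM against 0.252 to 3.91 CPM (log2 fold change -2.49). *Nppa* and *Nkx2-5*, classic cardiac targets and partners, did not pass the filter. Among 17 gonad and steroidogenic genes 9 were tested and 2 were higher. *Wt1*, a gonadal regulator, was at 25.9 CPM in N-15 and 6.52 CPM in N-3 but at 0.560 to 1.02 CPM in N-17 and N-8, and *Dhh*, a Hedgehog ligand, was at 26.6 CPM in N-15 and 3.60 CPM in N-17 but at most 0.871 CPM in N-3 and N-8, so that its log2 fold change of 3.46 was -0.084 in the loxP/+ tumors alone. Of 26 endoderm, liver and intestinal genes, 9 were tested and 1 was higher, *Lamb1*, a laminin chain, at 175 to 320 CPM against 35.6 to 130 CPM (log2 fold change 1.41, SE 0.35, edgeR adjusted p = 0.211). The median of this list was 0.84 and became -0.25 in the loxP/+ tumors alone.

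Of 23 tested senescence-associated secretory genes, 2 were higher and 0 lower, with a median of 0.49 that was 0.061 in the loxP/+ tumors alone. Of all genes tested, 7.90% were higher and 4.67% lower at the same threshold, and 50.8% had a positive log2 fold change. *Cdkn2a*, the cell cycle inhibitor locus on this list, was at 62.5 CPM in N-3, 10.7 in N-8, 21.5 in N-15 and 5.77 in N-17 against 3.83 to 10.5 CPM, and only N-17 was within the non-expressing range. Among 24 tested BMP and Hedgehog genes 3 were higher and 1 lower. *Gli3*, a transcription factor of Hedgehog signaling, was at 36.4 to 80.5 CPM against 6.90 to 12.6 CPM in N-4, N-6, N-7 and N-9 and 39.1 CPM in N-1 (log2 fold change 1.97, SE 0.49, edgeR adjusted p = 0.211). *Gli1*, a Hedgehog target, was at 0.036 to 0.306 CPM against 0.205 to 4.67 CPM. Of 25 tested cell cycle genes 24 had a positive log2 fold change and 3 were higher at an unadjusted p under 0.05, while *Mki67*, the most used proliferation marker, was at 136 to 431 CPM against 88.1 to 486 CPM. Of 24 tested type I interferon response genes 23 had a positive log2 fold change and 6 were higher. *Ifit3* was at 124 CPM in N-15 and 4.46 to 11.7 CPM in the 3 other expressing tumors, which overlapped the 1.30 to 7.66 CPM of the non-expressing tumors, and the median of 0.86 was 0.046 in the loxP/+ tumors alone.

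Markers of cell types were examined because a bulk tumor holds several of them, and in bulk RNA fewer cells of a type and less RNA per cell cannot be told apart. At an unadjusted p under 0.05, 7.90% of all genes tested were higher and 4.67% lower. The luminal markers as a list had a median log2 fold change of -0.07 over 23 tested genes, with 2 higher and 2 lower at that threshold. Their summed level was 3377 to 7528 CPM against 6462 to 9662 CPM, a difference of -0.50 in mean log2 level (exact permutation test, 2-sided, p = 0.222, adjusted over the marker lists 0.389) that ran from -0.68 to -0.30 with any 1 tumor left out. *Krt8*, a luminal keratin, was at 1601 CPM in N-15 and 179 to 576 CPM in the 3 other expressing tumors against 195 to 353 CPM, and *Cdh1* (E-cadherin) was at 441 to 939 CPM against 895 to 1218 CPM. *Elf3*, another epithelial ETS factor, was higher (log2 fold change 2.11, edgeR unadjusted p = 0.00559), opposite to *Ehf*. Of 14 tested basal markers 2 were higher and 1 lower. *Acta2*, smooth muscle actin, was at 80.8 to 127 CPM against 21.2 to 64.7 CPM, and the classes did not overlap. *Trp63*, the basal regulator p63, was at 1.31 to 28.3 CPM against 423 CPM in N-1, 94.8 in N-7, 98.4 in N-9, 7.70 in N-4 and 3.06 in N-6, with a log2 fold change of -3.55 that was 1.89 against N-6 alone, the lowest of the 5 (the fit with histology). Of 11 tested squamous keratinocyte genes 4 were lower, with *Krt10* at 0.0726 to 0.996 CPM against 0.646 to 290 CPM. *Krt6a*, however, was at 547 CPM in N-15 and at most 1.22 CPM in the 3 other expressing tumors, and the list's median of -1.94 was -7.38 without N-15 and 6.57 in the fit with histology, against N-6 alone. Of 11 tested milk protein genes 0 were higher and 1 lower, *Wap*, at 0 to 0.645 CPM against 0.168 to 8.09 CPM.

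The stromal and immune lists had positive medians. Of all genes tested, 50.8% had a positive log2 fold change, and 7.90% were higher and 4.67% lower at an unadjusted p under 0.05. All 12 macrophage markers had a positive log2 fold change (median 0.97), 6 of them at an unadjusted p under 0.05, and their summed level was 1686 to 2557 CPM in expressing tumors against 622 to 2159 CPM (2-sided exact permutation test, p = 0.0873, adjusted over 14 lists 0.389, and with library size in place of TMM p = 0.0317, adjusted 0.400). In the fit with histology, against N-6 alone, the macrophage median was 0.25. *Csf1r*, the receptor for the macrophage growth factor, was at 127 to 195 CPM against 29.5 to 138 CPM. All 12 endothelial markers were also positive (median 0.89), with 2 at an unadjusted p under 0.05, and their sum was 309 to 1041 CPM against 203 to 615 CPM. Without N-17 the endothelial median was 0.12, in the loxP/+ tumors alone it was 0.29, and in the fit with histology, against N-6 alone, it was -0.15. Of 19 mesenchymal genes 6 were higher, of 13 fibroblast markers 3, of 13 tested T and NK cell markers 4, of 7 tested neutrophil markers 3 and of 9 tested B and plasma cell markers 2, and 0 were lower in these 5 lists. *Twist1*, a transcription factor of epithelial-mesenchymal transition, was at 53.2, 25, 6.65 and 16.6 CPM against 3.03 to 13.2 CPM, and *Tgfbi*, a secreted matrix protein, was at 100 to 166 CPM against 32.3 to 95 CPM without overlap. *Col15a1*, a basement membrane collagen, was at 217 to 276 CPM against 40.8 to 154 CPM. The nerve list had a median of 0.10, with 1 of 9 genes higher. None of the 14 summed marker levels had an adjusted p under 0.05, and the smallest was 0.389. The part of these cell types in the differences above was not tested.

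Skeletal muscle markers were high in N-17 and N-3 and fat markers in N-17. Of 12 listed muscle genes 7 were tested, and *Myh4* (mean 185 CPM over the control tumors) was among those that did not pass the filter. All 7 were higher at an unadjusted p under 0.05, against 7.90% of all genes tested. Their median log2 fold change was 7.44, which was 4.25 without N-17, 4.83 in the loxP/+ tumors alone and 2.41 with voom. The summed level of the listed genes, 1.26 to 6505 CPM in expressing tumors, overlapped the 0.944 to 44.6 CPM of the others. *Atp2a1*, the calcium pump of fast muscle, was at 1775 CPM in N-17 and 121 CPM in N-3 but at 0.060 and 0.101 CPM in N-8 and N-15, while N-7 was at 10.2 CPM. Among 5 tested adipocyte markers of 10 listed, 3 were higher, with *Plin4*, a lipid droplet protein, at 287 CPM in N-17 and 0.0604 to 2.83 CPM in the 8 other tumors. Without N-17 the adipocyte median of 2.47 was -0.45, and 0 genes were called by edgeR's test, with 2820 at an unadjusted p under 0.05.

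**Figure D5:**
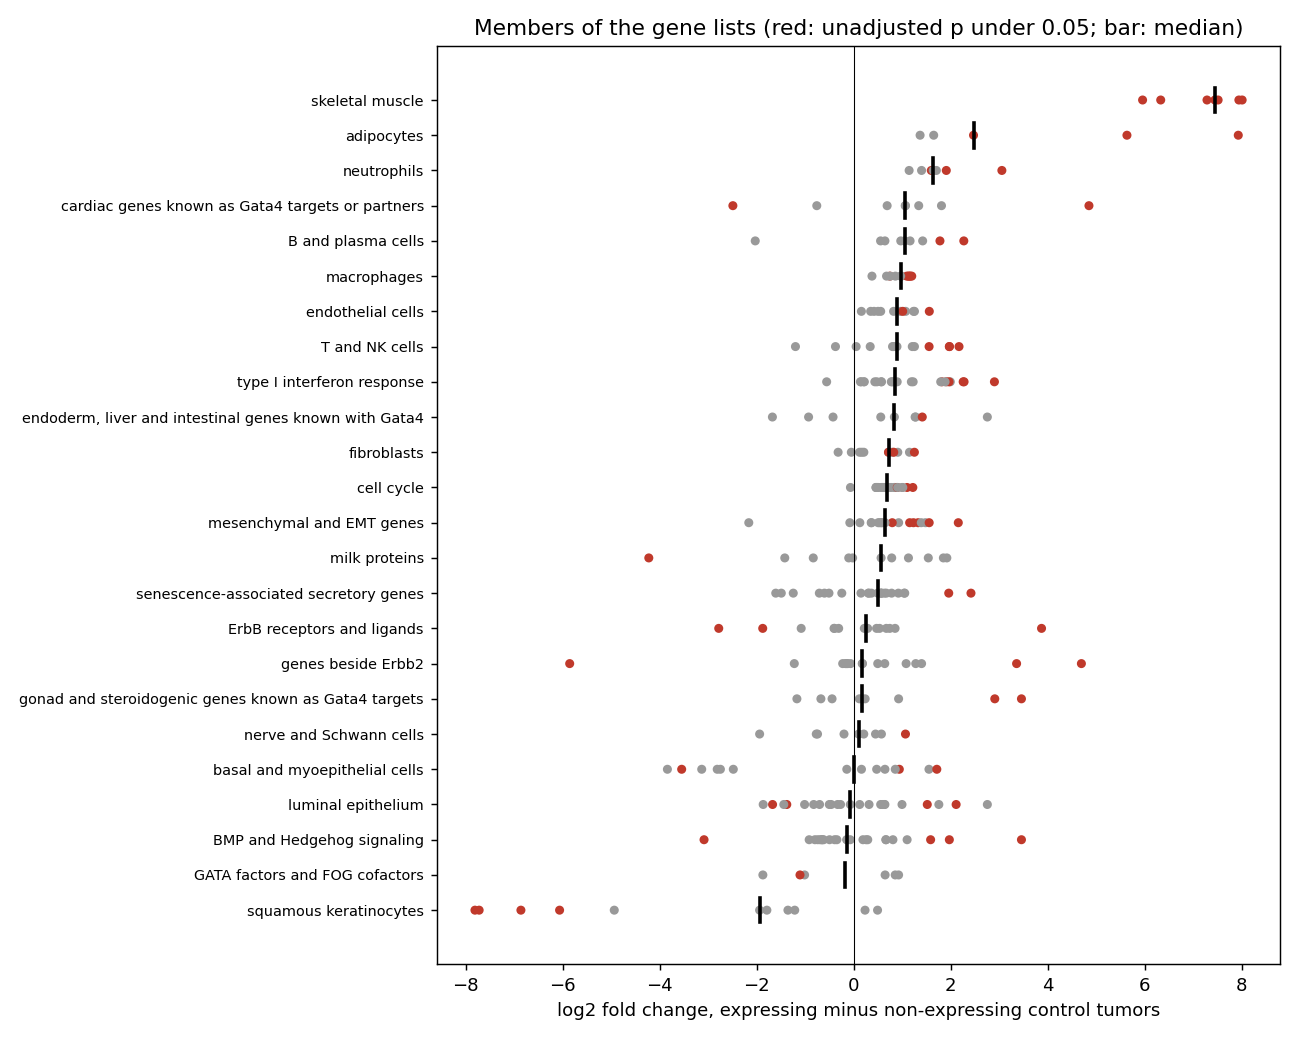
Log2 fold change (expressing minus non-expressing) of every tested member of the 24 gene lists, 1 point per gene, red at an unadjusted p under 0.05, with a bar at the median of each list. Skeletal muscle has the highest median (7.44) and squamous keratinocytes the lowest (-1.94).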

How the data were processed

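Ribosomal RNA-depleted, stranded RNA libraries of mammary tumors were sequenced, and the deposited files hold the whole number of reads on each gene, that is raw counts with no scaling by the authors. According to the submitters' processing notes, FastQC 0.11.5, Trim Galore 0.5.0, STAR 2.6.0c, HTSeq 0.6.1p2 and GRCm38.p6 were used. The paper's methods keep uniquely mapping reads and discard those on more than 1 gene, so overlapping and paralogous genes lose reads. The strand setting and annotation release are not given in the sources used here. FPKM values scaled by the authors were used to compare levels between genes. The authors' deposited comparisons of RhoC with control tumors (fold changes and p-values) were not used.

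The classes were formed from *Gata4* CPM, and the members and gene lists were chosen with earlier results of these data known. Tests used R 4.3.3 with edgeR 4.0.16 (TMM, filterByExpr with a minimum count of 10, glmQLFit and glmQLFTest, no covariates, *Gata4* left out), with Benjamini-Hochberg adjustment and a threshold of 0.05. SE is the log2 fold change divided by the square root of F. Alternatives used DESeq2 1.42.0 and limma 3.58.1. Single values were compared by exact permutation of the class labels. Named genes are the GATA and FOG genes, *Erbb2*, the 10 genes of smallest p in each direction with a mean log2 CPM over 0 and a name that is not a clone or predicted gene, up to 2 genes per direction and the most abundant marker of a list, and the 3 nearest tested genes on each side of *Gata4*. Other genes were named after their values were seen. The steps were tested on simulated data.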

Additional observations from a re-analysis of the deposited data

Results flagged for a closer look

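Among 76 groups of tumor values examined for a tumor far from the rest of its class, 5 had one, and chance gives about 5% of groups. The log2 CPM of *Hsdl2* was 5.96 in N-1, below the other non-expressing tumors, the next of which was at 6.30. The log2 CPM of *Gata3* was 8.07 in N-9, above the other non-expressing tumors, the next of which was at 7.67. The summed luminal markers were at a log2 CPM of 13.24 in N-7, above the next non-expressing tumor at 12.79. The summed squamous markers were at 10.09 in N-15, above the next expressing tumor at 5.30. The summed skeletal muscle markers were at 5.48 in N-7, above the next non-expressing tumor at 0.82.

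*Gata4* reads above the limit of 3 counts were also present in 3 tumors with the RhoC transgene, which the comparison did not use, at 5.44 CPM in R-12, 1.06 CPM in R-2 and 0.103 CPM in R-21. Their cause was not tested.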

How the results depend on the processing

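With 4 against 5 tumors, a count of 0 called genes says little about which genes changed, also for large changes. In the simulated data, 58% of genes changed 8-fold and 72% of those changed 16-fold were recovered. In these tumors *Ebf2*, with a log2 fold change of 3.36, was not called by edgeR's test. Genotype and histology were not balanced between the classes. The number of called genes was 671 with DESeq2, 57 with voom, 25 with all 21 tumors in the fit, 1 with library size in place of TMM and 1 with all genes of at least 1 count. It was 0 with a minimum mean of 1 CPM, in the loxP/+ tumors alone, with genotype or histology as a covariate, with a robust estimate of spread (chosen after seeing the data) and without any 1 of the 9 tumors. The causes of these differences were not tested. Of the 122 named genes tested, 91 kept their direction in every alternative, a count that includes the 20 genes chosen by p, whose classes did not overlap.

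Reversed log2 fold changes among named genes with an unadjusted p under 0.05 were those of *Dhh* (-0.084 in the loxP/+ tumors, -0.087 with genotype as a covariate), *Trp63* (1.89 with histology), *C1qc* (-0.013 with histology) and *Plin4* (-0.0085 in the loxP/+ tumors, -0.013 with genotype, and from -0.56 without N-17 to 6.04 without N-8). Both control tumors without loxP were expressing, so genotype as a covariate gives the same contrast as the loxP/+ tumors alone, N-3 and N-8 against 5. List medians that moved by more than 1 SD in the loxP/+ tumors and with genotype as a covariate were those of cardiac genes (0.34 and 0.35), endoderm genes (-0.25 and -0.26), secretory genes (0.061 and 0.056), squamous genes (-7.04 and -7.05) and adipocytes (0.011 and 0.0073). Within 1 SD, those of interferon genes (0.046 and 0.041), endothelial cells (0.29 and 0.28) and fibroblasts (0.28 and 0.28) were also lower there. With histology, where the non-expressing arm is N-6 alone, they were those of cardiac genes (-0.0070), gonad genes (1.69), basal markers (1.53), squamous genes (6.57), endothelial cells (-0.15), macrophages (0.25), neutrophils (3.25), the cell cycle (2.01), BMP and Hedgehog genes (0.45) and the neighbours of *Gata4* (-0.57). With voom they were those of secretory genes (0.81), squamous genes (-5.08), T and NK cells (1.76), B and plasma cells (3.36) and skeletal muscle (2.41). Leaving out 1 tumor at a time, medians ran from -0.45 to 3.34 for adipocytes, from 0.091 to 1.43 for cardiac genes, from 0.12 to 1.11 for endothelial cells, from -0.40 to 0.56 for GATA and FOG genes, from -0.077 to 1.44 for gonad genes, from -7.38 to -1.40 for squamous keratinocytes and from 0.53 to 1.74 for T and NK cells. The moved values were those without N-17 (adipocytes, cardiac genes and endothelial cells), N-1 (GATA and FOG genes and gonad genes), N-15 (squamous genes) and N-4 (T and NK cells). The skeletal muscle median ran from 4.25 without N-17 to 7.86 without N-8.

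No paired analysis was possible because the control tumors of the 2 classes come from different mice and share no numbers. The comparison within the RhoC tumors and its alternatives were not run, since only 1 tumor exceeded the threshold.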
